A study of Mus musculus with 2 samples.

Results

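Neurexins and neuroligins are cell adhesion proteins that meet across the synaptic cleft. The genes described here are 5 of the 32285 in the count matrices, taken by their symbols alone: Nrxn2 and Nrxn3 for the neurexins, and Nlgn1, Nlgn2 and Nlgn3 for the neuroligins. All 5 were found. A further neurexin gene is not analysed here. The data are counts of unique molecular identifiers (UMIs, each standing for 1 captured RNA molecule) in single nuclei of the mouse hippocampus. C57BL/6J mice had received an adeno-associated virus (AAV) into the ventricles of both sides of the brain on postnatal day 0. Both vectors carried a human MAPT transcript, the gene of the tau protein. In AAV-STOP, the control, an early stop codon prevents tau from being made, whereas AAV-TAU expresses full-length wild-type human 2N4R tau. Hippocampi were taken at 6 weeks of age and pooled from 3 mice per vector into 1 library each. Mice of both groups thus carried virus and human MAPT RNA, and a vector-free group is not analysed here. The promoter of the vectors, the cells they reach and the sex of the mice are not given in the sources used here. With 1 library per vector the spread between mice is unknown, so no difference was tested and every interval below covers counting error only.

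Neurexins sit mainly on the presynaptic side. They bind neuroligins, LRRTM proteins, cerebellins and latrophilins on the other side of the cleft, and inside the axon they hold the scaffold proteins of the release site. Each neurexin gene has separate start sites for a long alpha and a short beta form and is spliced into many variants, which reads from the 3′ end of transcripts do not separate. Among the neuroligins, Nlgn1 is known for glutamatergic synapses, Nlgn2 for inhibitory synapses and Nlgn3 for both. Neurexins and neuroligins are also expressed by glia.

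The genes differ widely in size on the mouse genome (GRCm38, GENCODE vM21). Nrxn3 (ENSMUSG00000066392) spans 1610 kb of the plus strand at chr12:88722876-90334935, and Nrxn2 (ENSMUSG00000033768) 125 kb of the plus strand at chr19:6418731-6544169. Nlgn1 (ENSMUSG00000063887) spans 906 kb of the minus strand at chr3:25426215-26332460. Nlgn2 (ENSMUSG00000051790) takes 14.7 kb of the minus strand at chr11:69823122-69837784, and Nlgn3 (ENSMUSG00000031302) 26.8 kb of the plus strand at chrX:101299168-101325963. Nuclear RNA is rich in unspliced transcripts, and whether intronic reads were counted is not given in the sources used here. Levels of different genes are therefore compared only per kb of gene span.

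Promoter sequences of 3 of the 5 genes were held by the RefSeq table used (GRCm38.p6). Shown are the 250 bases before a start site of Nlgn1, which was lower under AAV-TAU in each group below, of Nrxn3, which varied most between groups, and of Nlgn2, which varied least. They are written 5′ to 3′ on the gene's strand, with each CG dinucleotide in capitals.
Nlgn1, chr3:26331910-26332159, minus strand: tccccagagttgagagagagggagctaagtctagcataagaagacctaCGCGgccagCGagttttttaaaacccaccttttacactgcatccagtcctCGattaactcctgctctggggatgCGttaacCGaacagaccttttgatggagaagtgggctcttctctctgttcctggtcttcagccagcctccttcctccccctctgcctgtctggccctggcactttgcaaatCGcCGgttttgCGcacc
Nrxn3, chr12:89812233-89812482, plus strand: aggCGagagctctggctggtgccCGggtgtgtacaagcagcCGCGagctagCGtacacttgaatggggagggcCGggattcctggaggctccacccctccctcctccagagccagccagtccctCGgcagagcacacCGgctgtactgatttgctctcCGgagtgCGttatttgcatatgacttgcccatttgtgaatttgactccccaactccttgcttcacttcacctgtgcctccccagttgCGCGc
Nlgn2, chr11:69837785-69838034, minus strand: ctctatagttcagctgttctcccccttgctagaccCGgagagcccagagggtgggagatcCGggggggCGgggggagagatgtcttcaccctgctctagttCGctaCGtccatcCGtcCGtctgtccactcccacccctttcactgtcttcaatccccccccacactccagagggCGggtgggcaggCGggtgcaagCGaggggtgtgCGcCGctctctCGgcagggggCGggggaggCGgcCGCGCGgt
The Nlgn1 window held 9 CG, the Nrxn3 window 12 and the Nlgn2 window 18. Of the 32851 windows of this length in the table, 40.3% held at least as many as that of Nlgn1, 33.5% as many as that of Nrxn3 and 21.7% as many as that of Nlgn2. The Nlgn1 and Nrxn3 windows shown lie inside the GENCODE spans of their genes. A second Nlgn1 window, further into the gene, held 5 CG, and the 2 other Nrxn3 windows, nearer the gene's 5′ end, held 2 and 5 CG. Since CG reads the same on both strands, each count stands for both. The counts are a description of the letters, and no methylation or binding was measured.

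The AAV-STOP library held 20265 barcodes and the AAV-TAU library 19596, of which 17655 and 17239 were kept as single nuclei. Median depth per nucleus was 5585 UMIs for AAV-STOP against 4946 for AAV-TAU, and the median mitochondrial share 0.172% against 0.280%. The libraries shared 116 barcodes. Levels were summed over 12 groups of nuclei with at least 100 nuclei in each library. Of these, 11 are classes named after marker genes and called granule-like, CA3-like and so on, and 1 is a cluster with all 5 CA1 markers raised that missed the naming limits and is called the CA1-marker cluster. Some class markers: Prox1 stood at 332 CPM (UMIs per 1000000 UMIs of the group) in AAV-STOP and 341 CPM in AAV-TAU granule-like nuclei, and Gad2 at 364 and 347 CPM in inhibitory neuron-like nuclei. The groups held between 354282 and 29371299 UMIs per library. Mouse Mapt does not check the vector labels, since both vectors carry the human transcript, which was not analysed here.

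**Figure D1:**
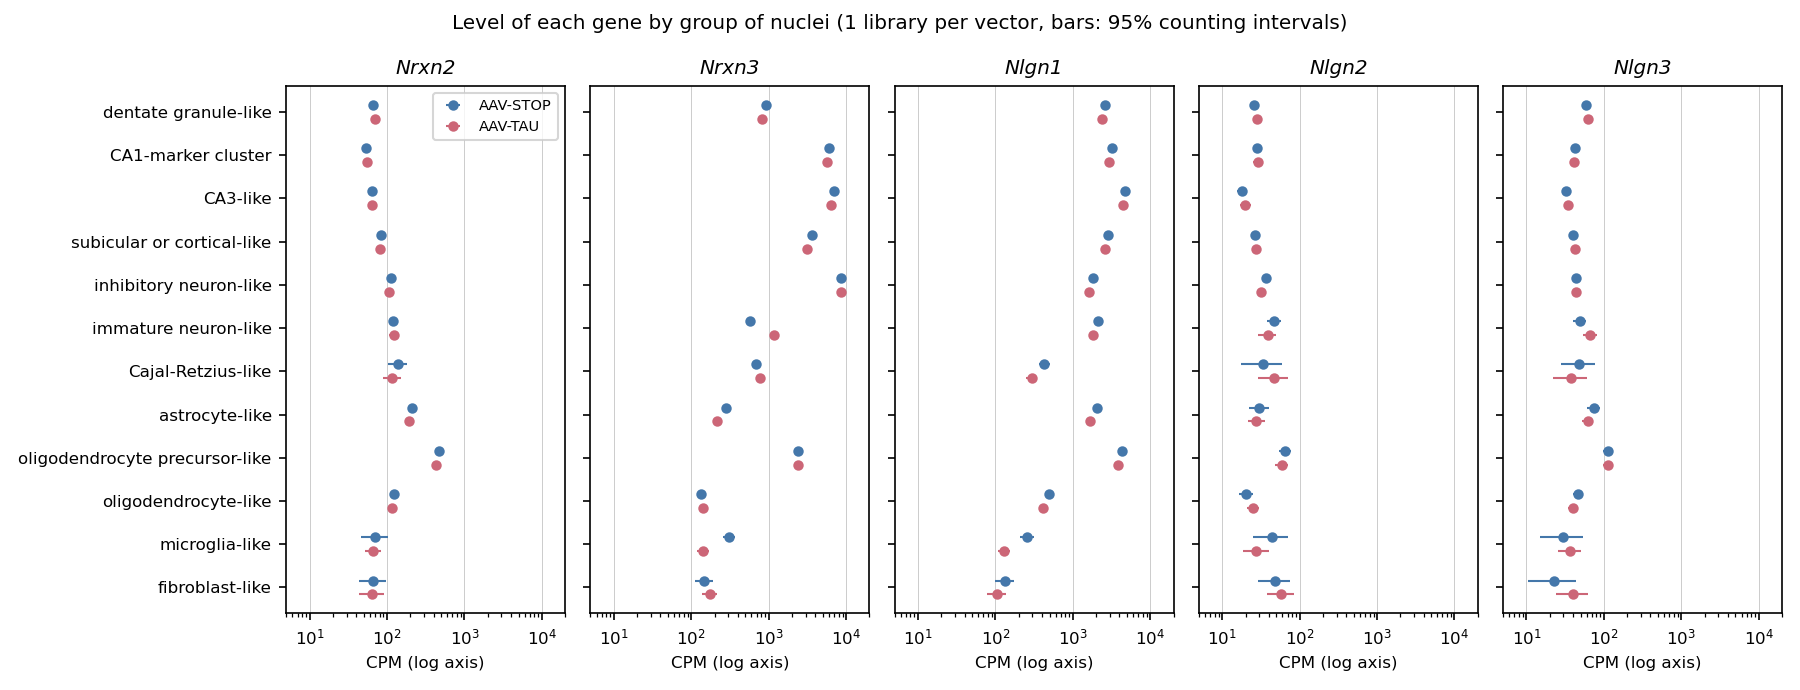
Level of each gene in CPM on a log axis (x) for the 12 groups of nuclei (y), with 1 point per library and exact 95% Poisson intervals. Nrxn3 spans from 135 CPM in oligodendrocyte-like to 8657 CPM in inhibitory neuron-like nuclei of AAV-STOP, whereas Nlgn2 stays between 18.0 and 64.4 CPM.

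Nrxn3 was the member that differed most between cell types. In AAV-STOP it reached 8657 CPM in inhibitory neuron-like, 6918 CPM in CA3-like and 6062 CPM in CA1-marker nuclei, and 3672 CPM in subicular or cortical-like nuclei. AAV-TAU gave 8501, 6318, 5714 and 3097 CPM in the same groups. The counting intervals of these 4 groups did not overlap in either library. Oligodendrocyte precursor-like nuclei, a glial class, held 2428 CPM in AAV-STOP and 2388 CPM in AAV-TAU, above the 937 and 810.1 CPM of dentate granule-like neurons. Cajal-Retzius-like nuclei, early-born neurons that release reelin, had 692 CPM in AAV-STOP and 777 CPM in AAV-TAU. At the low end, where neighbours often overlapped, lay astrocyte-like nuclei with 279 and 214 CPM, fibroblast-like nuclei with 147 and 174 CPM, and oligodendrocyte-like nuclei with 135 and 143 CPM. The highest group stood 63.9-fold above the lowest in AAV-STOP and 59.6-fold in AAV-TAU.

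A Nrxn3 UMI was seen in 99.9% of inhibitory neuron-like nuclei of AAV-STOP and 99.6% of AAV-TAU. Shares of this kind rise with depth and with RNA set free during preparation, so nuclei were also thinned to 2000 UMIs each. Microglia-like nuclei, where presynaptic adhesion genes are not expected, gave shares of 35.3% and 24.1%, with median depths of 2210 and 1925 UMIs against 6179 and 5799 in inhibitory neuron-like nuclei. Thinned, the microglia-like shares were 32.1% and 21.3%, leaving out 16 and 318 shallower nuclei. Thinned oligodendrocyte-like nuclei gave 21.5% and 22.3%, leaving out 32 and 446, and thinned astrocyte-like nuclei 31.2% and 28.7%, leaving out 6 and 132. In AAV-STOP these shares did not exceed the microglia-like one and are not read as expression. In AAV-TAU both were above it, but the microglia-like share there rests on 188 nuclei. The oligodendrocyte-like 22.3% against 21.3% is not read as expression either. Thinned Cajal-Retzius-like nuclei lay in the same range, with 29.4% and 31.1%, leaving out 3 and 23. Thinned oligodendrocyte precursor-like nuclei, by contrast, held a Nrxn3 UMI in 96.8% of AAV-STOP and 96.9% of AAV-TAU nuclei, leaving out 5 and 53.

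Within inhibitory neurons Nrxn3 split by subtype. The subcluster carrying Cck markers had 12915 CPM in AAV-STOP and 12511 CPM in AAV-TAU, Vip subclusters 11744 and 11894 CPM, and Sst subclusters 11002 and 10492 CPM. Pvalb subclusters, which stand for fast-spiking basket and related cells, had 5441 and 5500 CPM. Lamp5 subclusters, which hold neurogliaform-type cells, had 2165 and 2105 CPM. The AAV-TAU to AAV-STOP ratio lay between 0.954 in Sst and 1.01 in Vip subclusters, so that the order by subtype was the larger contrast. Nlgn1 had another order: Lamp5 subclusters led with 2592 CPM in AAV-STOP and 2323 CPM in AAV-TAU, and Pvalb subclusters were lowest with 892 and 725 CPM. The Cck level came from a single subcluster, with 84 AAV-STOP and 88 AAV-TAU nuclei.

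**Figure D2:**
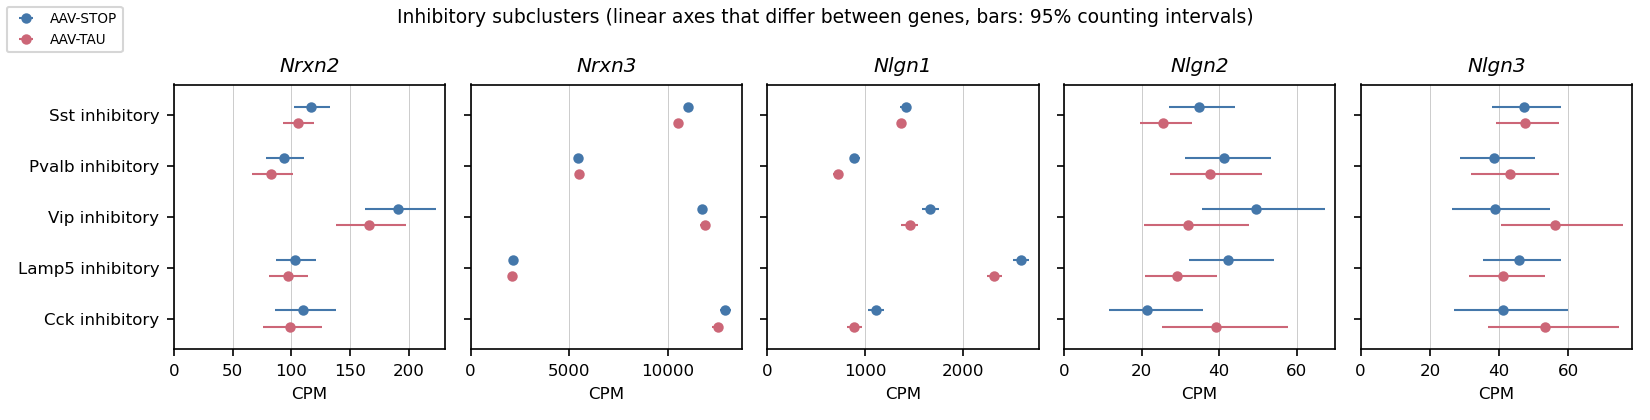
Level of each gene in CPM (x, linear axes that differ between genes) in 5 sets of inhibitory subclusters (y), with 1 point per library and exact 95% Poisson intervals. Nrxn3 was lowest and Nlgn1 highest in Lamp5 subclusters, in both libraries.

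Nrxn2 ranked differently from Nrxn3. Its highest level was in oligodendrocyte precursor-like nuclei, with 469 CPM in AAV-STOP and 428 CPM in AAV-TAU, followed by astrocyte-like nuclei with 213 and 189 CPM. Neuronal groups lay lower, from 53.7 CPM in the CA1-marker cluster to 138 CPM in Cajal-Retzius-like nuclei of AAV-STOP, and from 54.7 to 124 CPM in AAV-TAU. Most neighbours among them overlapped in their intervals. Thinned to 2000 UMIs, 59.1% of AAV-STOP and 57.7% of AAV-TAU oligodendrocyte precursor-like nuclei held a Nrxn2 UMI, against 13.6% and 12.8% of microglia-like nuclei. Thinned granule-like nuclei gave 12.1% and 12.8%, leaving out 6 and 18 shallower nuclei, so that the granule-like level is not read as above background. CA3-like nuclei, at 64.15 and 63.5 CPM, and CA1-marker nuclei did not exceed the 70.8 and 66.4 CPM of microglia-like nuclei either.

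Per kb of gene span the neurexins changed places between cell types. In inhibitory neuron-like nuclei of AAV-STOP Nrxn3 had 5.37 CPM per kb and Nrxn2 0.895 CPM per kb. Granule-like nuclei held the pair at 0.581 and 0.521 CPM per kb, but the Nrxn2 level there is not read as above background, so the pair is not ranked in them. Oligodendrocyte precursor-like nuclei had 1.51 CPM per kb of Nrxn3 and 3.74 CPM per kb of Nrxn2, so there the order was turned. By CPM alone Nrxn3 stood above Nrxn2 in them, at 2428 and 469 CPM, so the turn rests on the division by span. Whether that division is apt depends on whether intronic reads were counted.

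Nlgn1, the neuroligin of glutamatergic synapses, was highest in CA3-like nuclei, with 4649 CPM in AAV-STOP and 4438 CPM in AAV-TAU. Oligodendrocyte precursor-like nuclei came next with 4266 and 3863 CPM, then the CA1-marker cluster with 3220.3 and 2964 CPM. Subicular or cortical-like nuclei had 2851 and 2599.8 CPM, and granule-like nuclei 2572 and 2404 CPM. Immature neuron-like nuclei had 2089.9 and 1839.5 CPM. In AAV-STOP these could not be separated from the 2079 CPM of astrocyte-like nuclei, whose AAV-TAU level was 1673 CPM. Inhibitory neuron-like nuclei had 1815 and 1598 CPM. In AAV-TAU the immature neuron-like interval lay above the astrocyte-like one. Far lower were oligodendrocyte-like nuclei with 498 and 406 CPM, Cajal-Retzius-like nuclei with 429 and 294 CPM, microglia-like nuclei with 256 and 129.7 CPM, and fibroblast-like nuclei with 132 and 104 CPM. All 12 groups kept their rank between the libraries. Thinned to 2000 UMIs, 97.7% and 98.0% of granule-like nuclei held a Nlgn1 UMI, against 27.9% and 18.6% of microglia-like nuclei. Within the oligodendrocyte lineage the contrast was wide, with thinned shares of 99.5% and 99.6% in precursors and 53.5% and 49.1% in oligodendrocyte-like nuclei.

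Nlgn3 was highest in oligodendrocyte precursor-like nuclei too, with 113 CPM in AAV-STOP and 115 CPM in AAV-TAU. Astrocyte-like nuclei had 74.3 and 62.1 CPM, and granule-like nuclei led the mature neuronal groups with 58.6 and 62.1 CPM. The other mature neuronal groups lay between 32.0 and 48.0 CPM in AAV-STOP, counting Cajal-Retzius-like nuclei, and most of their intervals overlapped. Nlgn2, the neuroligin of inhibitory synapses, was flat by comparison. It ranged from 18.0 CPM in CA3-like to 64.4 CPM in oligodendrocyte precursor-like nuclei of AAV-STOP, and from 19.9 to 58.5 CPM in AAV-TAU, and each group overlapped with its neighbour in the AAV-STOP order. Inhibitory neuron-like nuclei, at 36.4 and 32.2 CPM, were not the highest. Thinned to 2000 UMIs, a Nlgn2 UMI was seen in 4.97% and 5.29% of granule-like nuclei and 8.46% and 6.66% of inhibitory neuron-like nuclei, against 7.86% and 6.38% of microglia-like nuclei. At this depth Nlgn2 could thus not be told from background in most groups, and oligodendrocyte precursor-like nuclei, with 12.4% and 10.9%, lay further above it. For Nlgn3 the thinned shares were 11.1% and 11.5% in granule-like and 21.4% and 19.6% in oligodendrocyte precursor-like nuclei, against 4.29% and 8.51% in microglia-like nuclei. Per kb of gene span, granule-like nuclei of AAV-STOP had 2.84 CPM per kb of Nlgn1, 2.19 of Nlgn3 and 1.74 of Nlgn2. Since the Nlgn2 level there could not be told from background, only Nlgn1, from 75551 UMIs, and Nlgn3, from 1720, are set against each other.

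Across the 12 groups, with both libraries summed, the level of Nlgn3 followed that of Nrxn2 (Pearson r = 0.85 of log2(CPM + 5)) and that of Nlgn1 followed Nrxn3 (r = 0.75), whereas Nrxn2 and Nrxn3 hardly followed each other (r = -0.06). These values describe 12 points that share the libraries and are not tests. Of 10520 other genes, those most like Nrxn3 were Epha5, an ephrin receptor (r = 0.96), Zfp804a (r = 0.95) and the sodium channel gene Scn1a (r = 0.94). Cadm2, a synaptic adhesion gene (r = 0.96), Csmd1 (r = 0.93) and Dmd, the dystrophin gene (r = 0.93), came closest to Nlgn1. For Nrxn2 they were Bend7 (r = 0.93), Rlbp1 (r = 0.92) and Hip1r (r = 0.91), and for Nlgn3 the glial phosphatase gene Ptprz1 (r = 0.90), Rlbp1 (r = 0.89) and Chadl (r = 0.89). Nlgn2 had Msantd2 (r = 0.90), the AMPA receptor auxiliary gene Cacng4 (r = 0.89) and Senp7 (r = 0.89).

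The comparison of AAV-TAU with AAV-STOP sets 1 library against the other in each group of nuclei. An effect of tau cannot be told apart from other differences between the libraries. Of the 60 ratios of 5 genes in 12 groups, 2 had a counting interval above 1, 18 below 1 and 40 including 1. In 52 of the 60 the gene had at least 100 UMIs over both libraries, which every gene had to have in the counts over all genes. Of these 52, 2 had an interval above 1 and 18 below. Over all genes and the same groups, 16.5% of ratios had an interval above 1 and 7.04% below. Ratios at least 25% higher numbered 2 and ratios at least 20% lower numbered 5 of the 52, against 13.7% and 4.26% over all genes. Of the 18 intervals below 1, 11 belonged to Nlgn1 and 7 to Nrxn3. An interval leaves out 1 more readily where a gene has more UMIs. In granule-like nuclei Nlgn1 stood above 99.8% and Nrxn3 above 99.1% of the counted genes by level. The shares over all genes were not taken from genes of like level, so the interval counts do not show an excess of change.

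**Figure D3:**
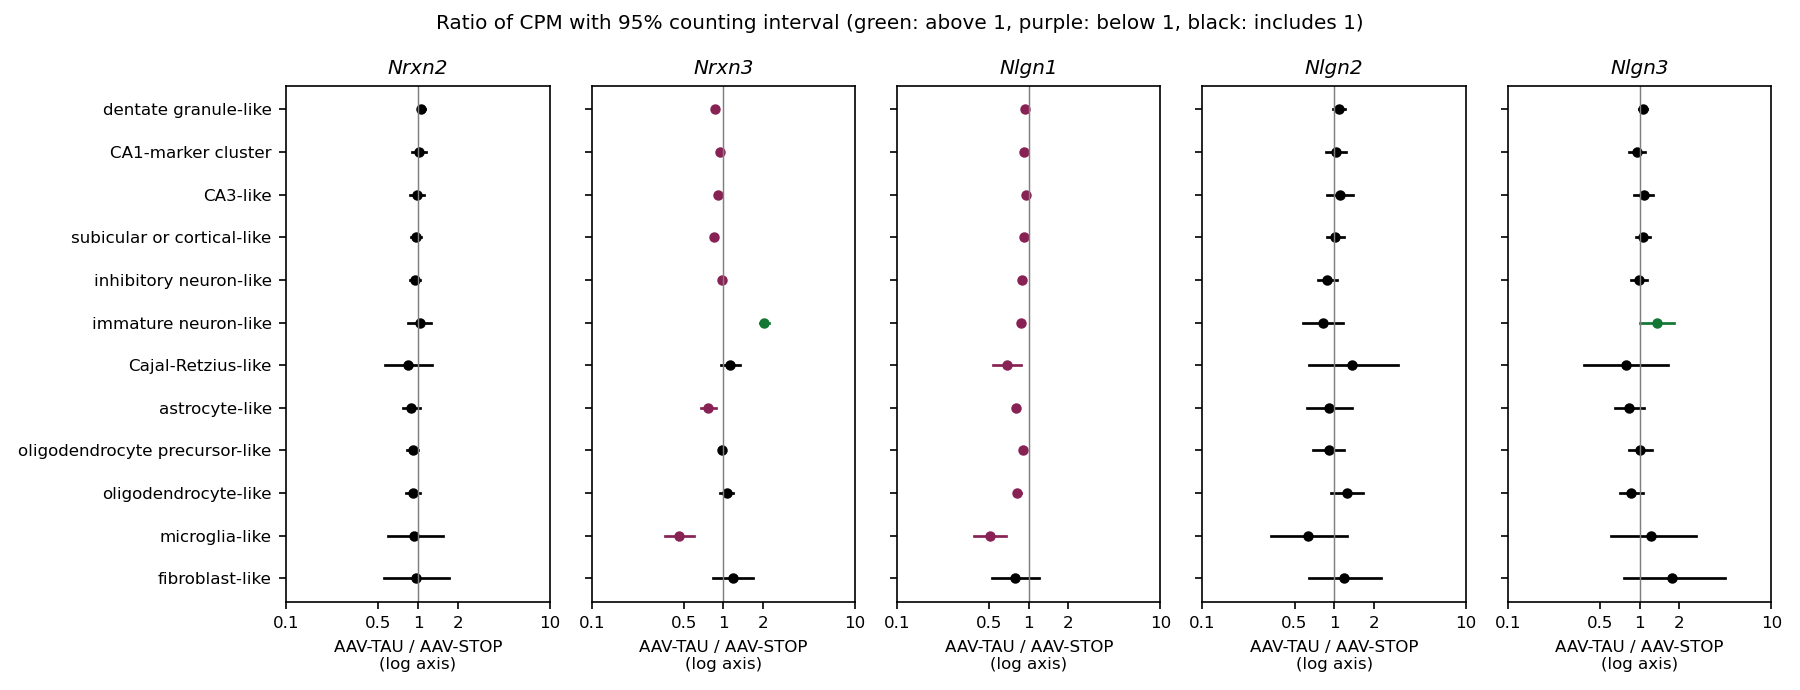
Ratio of AAV-TAU to AAV-STOP CPM (x, log axis) for each gene and group (y), with exact 95% counting intervals, coloured by whether the interval lies above 1, below 1 or includes it. All 12 Nlgn1 points lie below 1, and Nrxn3 in immature neuron-like nuclei lies at 2.04.

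Nlgn1 was lower in AAV-TAU in all 12 groups, and its interval lay below 1 in all but fibroblast-like nuclei. Among these groups, microglia-like nuclei serve as background, and fibroblast-like nuclei did not exceed them in Nlgn1 level in either library. The differences were small in the neurons of the trisynaptic circuit. The ratio was 0.935 (0.924 to 0.945) in granule-like, 0.954 (0.941 to 0.968) in CA3-like and 0.920 (0.905 to 0.936) in CA1-marker nuclei. It was 0.912 in subicular or cortical-like, 0.880 in inhibitory neuron-like and 0.880 in immature neuron-like nuclei. Among glia the ratio was 0.905 in oligodendrocyte precursor-like nuclei, 0.815 in oligodendrocyte-like and 0.804 (0.767 to 0.843) in astrocyte-like nuclei. Cajal-Retzius-like nuclei had 0.684 and microglia-like nuclei 0.507 (0.386 to 0.668), on 152 and 133 UMIs in the former and 94 and 131 in the latter. Over other processing settings the log2 ratio ranged from -1.10 to -0.21 in Cajal-Retzius-like and from -2.09 to -0.59 in microglia-like nuclei. In granule-like nuclei each of the 3 clusters of the class showed the same direction, with ratios of 0.952, 0.943 and 0.917. When the 12 groups were divided by a finer clustering, 33 parts held at least 20 nuclei per library, and Nlgn1 was lower in 32 of them. A finer cluster shared between groups counts once in each. The same count was not made for other long genes. The exception was an inhibitory part of 101 AAV-STOP and 55 AAV-TAU nuclei with 4368 and 4964 CPM, a ratio of 1.14 (1.07 to 1.20). Weighting finer clusters alike in both libraries moved the inhibitory neuron-like ratio from 0.880 to 0.951, and Nlgn1 in Sst subclusters had 1414 and 1371 CPM, a ratio of 0.969 (0.921 to 1.02).

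Long genes as a whole were lower too. Genes over 200 kb had a median log2 ratio between -0.16 and -0.03, below 0 in all 12 groups, and genes under 5 kb between 0.14 and 0.58. The AAV-TAU nuclei were also the shallower and had the higher mitochondrial share. Nlgn1 lay below the median of the long genes in 12 of 12 groups. The share of genes over 200 kb with a still lower ratio ranged from 4.13% in the microglia-like background to 39.1% in CA3-like nuclei. It was 26.9% in granule-like and 15.5% in inhibitory neuron-like nuclei. Thinning nuclei to 2000 UMIs left Nlgn1 lower in 12 of 12 groups, with 8 intervals below 1. Among nuclei with at most 0.2% mitochondrial UMIs it was lower in 12 of 12, with 10 intervals below 1. What the length of the gene contributes was not tested further. The short neuroligins had wider intervals: all 12 Nlgn2 intervals included 1, and so did 11 of 12 for Nlgn3. In granule-like nuclei Nlgn2 had 25.5 and 27.8 CPM, a ratio of 1.09 (0.979 to 1.21), and Nlgn3 58.6 and 62.1 CPM, a ratio of 1.06 (0.988 to 1.14).

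Nrxn3 was lower in AAV-TAU in 7 groups by its interval. Of these, 5 are neuronal, while microglia-like nuclei serve here as background and astrocyte-like nuclei of AAV-STOP did not exceed them in their thinned share with a UMI. In subicular or cortical-like nuclei the ratio was 0.843 (0.832 to 0.855), in granule-like 0.864 (0.848 to 0.881), in CA3-like 0.913 (0.902 to 0.924) and in CA1-marker nuclei 0.943 (0.931 to 0.954). In the Nrxn3-rich inhibitory neuron-like nuclei it was 0.982 (0.972 to 0.992). Oligodendrocyte precursor-like nuclei had 0.984 (0.942 to 1.03). Astrocyte-like nuclei had 0.770 (0.675 to 0.878) on 435 and 480 UMIs, and 8.55% of all genes there were lower by 20% or more.

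In dentate granule-like nuclei the Nrxn3 level differed between the clusters of the class. Cluster 0 had 538 CPM in AAV-STOP and 526 CPM in AAV-TAU, cluster 2 had 586 and 576 CPM, and cluster 6 had 2568 and 2584 CPM. Within the clusters the ratios were 0.977, 0.983 and 1.01, and all 3 intervals included 1. Cluster 6 held 945 of 5173 granule-like nuclei in AAV-STOP, or 18.3% (exact binomial interval 17.2% to 19.3%), and 511 of 4161 in AAV-TAU, or 12.3% (11.3% to 13.3%). In a nucleus thinned to 2000 UMIs the median was 4 Nrxn3 UMIs in cluster 6 of both libraries and 0 or 1 in the other two. When the class was divided by a finer clustering, 6 of 7 parts had a ratio below 1, and 4 of them an interval below 1. Those 4 had ratios of 0.920 (0.865 to 0.979), 0.871 (0.836 to 0.908), 0.796 (0.743 to 0.852) and 0.848 (0.751 to 0.958). The most Nrxn3-rich of the 7, with 2420.2 and 2359 CPM, had 0.975 (0.947 to 1.00). Weighting the 7 alike in both libraries gave a ratio of 0.926 for the class, between 0.864 and 1. How much of the lower level goes with the shares and how much with levels inside clusters thus depended on the clustering. Leading genes of cluster 6, such as Stxbp6, Arsj, Cntnap5a and Ntng1, were not among the 10 leading genes of clusters 0 and 2. Whether the share of cluster 6 differs between mice was not tested. Neither Nrxn3 nor the other members entered the clustering. The same weighting moved the subicular or cortical-like ratio from 0.843 to 0.909.

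**Figure D4:**
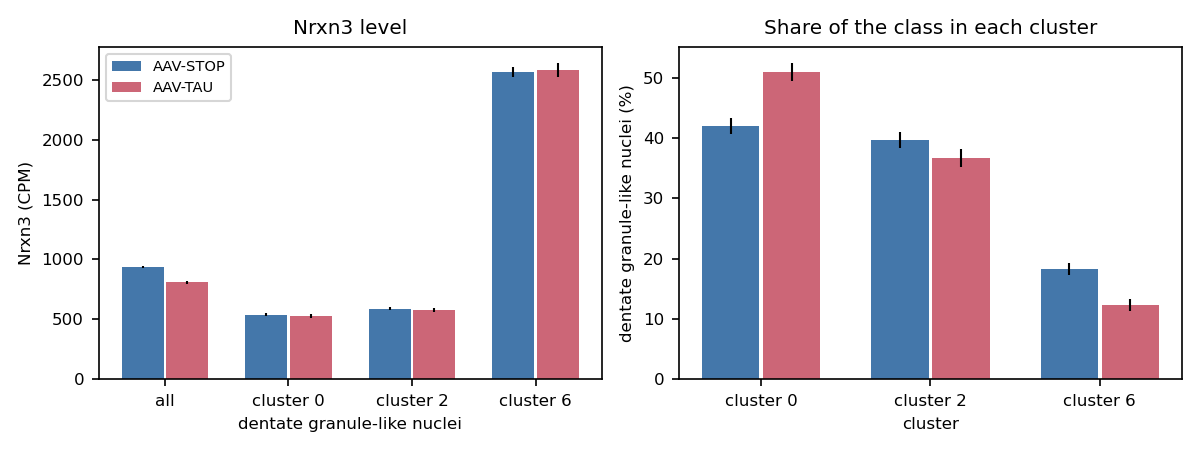
Nrxn3 level in CPM (left, bars with exact 95% Poisson intervals) in all dentate granule-like nuclei and in each cluster of the class, and the share of the class in each cluster in percent (right, exact 95% binomial intervals). Cluster 6 has about the same Nrxn3 level in both libraries, 2568 and 2584 CPM, but holds 18.3% of the class in AAV-STOP and 12.3% in AAV-TAU.

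Immature neuron-like nuclei, marked by Dcx, with 235 and 225 CPM, and Igfbpl1, with 239.98 and 283 CPM, were the group whose Nrxn3 interval lay above 1. The level was 568 CPM in AAV-STOP and 1159 CPM in AAV-TAU, a ratio of 2.04 (1.89 to 2.20), and 12.7% of all genes in the class were higher by 25% or more. At a finer clustering the class fell into a cluster with 452 and 1351 CPM, a ratio of 2.99 (2.71 to 3.29), and one with 829 and 645 CPM, a ratio of 0.779 (0.666 to 0.908), so that the direction was not the same throughout. The typical nucleus did not carry this difference: the median was 0 Nrxn3 UMIs in both libraries. Nuclei with at least 10 Nrxn3 UMIs numbered 22 of 545 in AAV-STOP and 29 of 442 in AAV-TAU, and they held 62.6% and 80.1% of all Nrxn3 UMIs of the class. Of them 10 and 21 also carried inhibitory markers, counted as follows. Nuclei with at least 3 UMIs of Gad1, Gad2, Slc32a1 and Dlx6os1, genes of GABA synthesis, GABA loading and inhibitory lineage, numbered 18 (3.30%) in AAV-STOP and 26 (5.88%) in AAV-TAU. They held 465 of 1106 Nrxn3 UMIs in AAV-STOP and 1170 of 1652 in AAV-TAU. Among these nuclei alone the Nrxn3 level was 3052 CPM in AAV-STOP and 17053 CPM in AAV-TAU, a ratio of 5.59 (5.01 to 6.24). They also differed in other genes, with Nlgn1 at 2323 and 1064 CPM, a ratio of 0.458 (0.351 to 0.591), and Prox1 at 518 and 306 CPM, a ratio of 0.590 (0.346 to 0.965). The cut of 3 UMIs takes no account of depth. By the UMIs and levels above, the 18 AAV-STOP nuclei held more UMIs in all than the 26 AAV-TAU nuclei, so they were deeper on average. The nuclei picked thus differed in number, in depth and in expression, and what depth contributes was not tested. Without them the level was 357 CPM in AAV-STOP and 355 CPM in AAV-TAU, a ratio of 0.994 (0.881 to 1.12). The summed inhibitory markers of the class stood at 300.1 CPM in AAV-STOP and 417 CPM in AAV-TAU. This split was chosen after the values were seen.

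**Figure D5:**
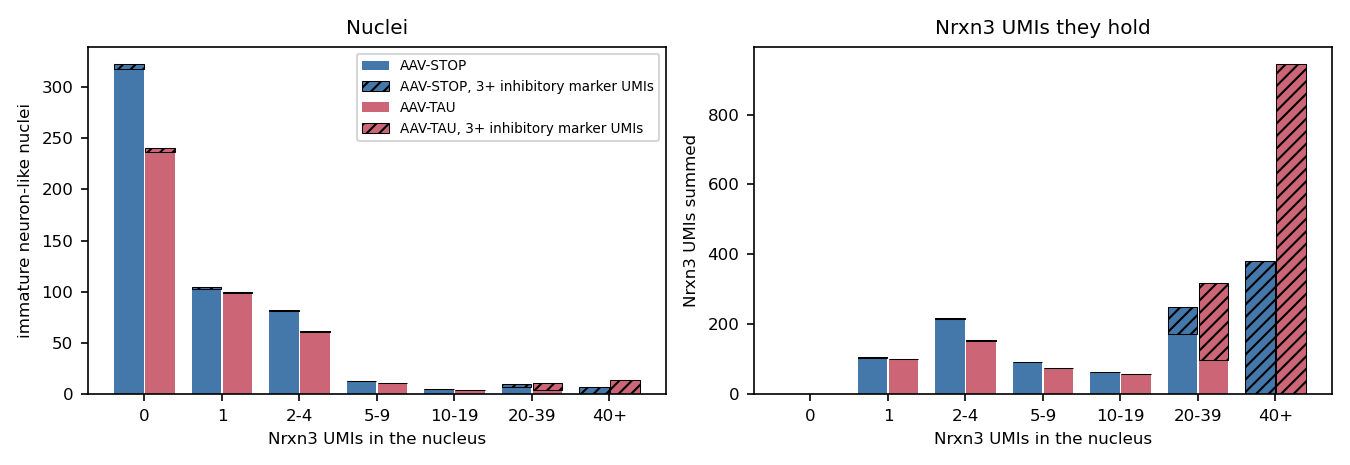
Number of immature neuron-like nuclei (left) and of the Nrxn3 UMIs they hold (right) by the count of Nrxn3 UMIs in the nucleus (x), for each library, with hatching for nuclei that hold at least 3 inhibitory marker UMIs. Most nuclei hold 0 or 1 Nrxn3 UMI, and the difference between the libraries lies in the few nuclei at the right, most of them hatched.

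Nlgn3 in immature neuron-like nuclei was the other ratio with an interval above 1. It had 48.8 CPM in AAV-STOP and 65.9 CPM in AAV-TAU, from 95 and 94 UMIs, a ratio of 1.35 (1.00 to 1.82). The lower bound lies close to 1, and under 6 of 10 other processing settings the interval included it. Without the nuclei with inhibitory markers the interval was 0.966 to 1.77 around 1.31. Nlgn1 in the same nuclei remained lower without them, at 2070.1 and 1879 CPM, a ratio of 0.908 (0.863 to 0.955). Nrxn2 had 121 and 124 CPM in the class.

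Microglia-like nuclei showed low and unequal levels of both long members. Nrxn3 had 308 CPM in AAV-STOP and 143 CPM in AAV-TAU, from 113 and 144 UMIs, a ratio of 0.463 (0.360 to 0.598). In this class 14.2% of all genes were lower by 20% or more. The granule marker set summed to 1155 CPM in AAV-STOP and 939.9 CPM in AAV-TAU microglia-like nuclei, and inhibitory markers to 191 and 192 CPM. The granule set is not particular to granule neurons. In AAV-STOP it summed to 3010 CPM in oligodendrocyte-like and 1635 CPM in granule-like nuclei, so it does not measure stray granule RNA. The class held 156 nuclei in AAV-STOP and 506 in AAV-TAU. Its own markers Csf1r, at 844 and 839 CPM, and P2ry12, at 1100.4 and 1039.9 CPM, were near each other. The part of neuronal RNA in these values was not tested.

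For Nrxn2 all 12 intervals included 1, from a ratio of 0.846 (0.563 to 1.27) in Cajal-Retzius-like to 1.06 (0.993 to 1.14) in granule-like nuclei. The narrowest interval was that of granule-like nuclei, and a level 25% higher lay outside it. The Nrxn2 level there is not read as above background, so this bound does not speak for Nrxn2 of granule neurons. Outside the 12 groups, cluster 12, an unnamed neuronal cluster with Otof and C1qtnf7 among its leading genes, had lower levels of both neurexins in AAV-TAU. Nrxn2 had 128 and 93.0 CPM there, a ratio of 0.726 (0.632 to 0.833), and Nrxn3 3068 and 1945 CPM, a ratio of 0.634 (0.616 to 0.653). Nlgn1 in that cluster had 4453 and 4443 CPM, a ratio of 0.998. Of all genes in cluster 12, 9.14% had an interval below 1 and 25.4% above. Over all genes and the 12 groups these shares were 7.04% and 16.5%. This cluster and the next ones were chosen for naming after their values were seen. AAV-TAU nuclei of it were shallower, at a median of 6834 against 8333 UMIs. In cluster 19, with Hs3st4 and Lars2 among its leading genes, Nrxn3 had 2738 and 1116 CPM, a ratio of 0.407 (0.377 to 0.440), and Nlgn1 2654 and 1158 CPM, a ratio of 0.436 (0.404 to 0.472). It counted 149 nuclei in AAV-STOP against 560 in AAV-TAU, with median depths of 2699 and 1786 UMIs, and its best marker set was that of oligodendrocytes although it carried neuronal Rbfox3. In cluster 18, with Glra3 and Baiap3 among its leading genes, Nrxn3 was higher in AAV-TAU, at 5152 and 5641 CPM, a ratio of 1.09 (1.06 to 1.13). Of all genes in that cluster, 11.5% had an interval above 1.

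The partners of these proteins were taken from a list of 42 genes. In granule-like nuclei 37 of them had at least 100 UMIs, with 2 at least 25% higher and 0 at least 20% lower, against 12.9% and 1.22% of all genes. By intervals, 6 of the 37 lay above 1 and 10 below in granule-like nuclei, where 27.8% and 7.05% of all genes did. In subicular or cortical-like nuclei 5 lay above and 13 below 1 of 38 (22.2% and 6.97% of all genes), in inhibitory neuron-like nuclei 5 and 9 of 38 (15.2% and 6.69%), and in CA3-like nuclei 3 and 6 of 35 (13.2% and 5.5%). Such interval counts depend on how many UMIs a gene has, and genes of like level were not set beside them. For the larger differences, in CA3-like nuclei it was 0 higher and 1 lower of 35 (10.3% and 2.62% of all genes), and in inhibitory neuron-like nuclei 1 and 0 of 38 (11.6% and 2.35%). The list's median log2 ratio was 0.0090 in granule-like and -0.0081 in inhibitory neuron-like nuclei, where all genes had 0.06 and 0.05.

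Khdrbs3, which encodes a splicing factor of neurexin transcripts, was higher in granule-like nuclei of AAV-TAU, at 53.7 and 71.8 CPM, a ratio of 1.34 (1.247 to 1.434). The same direction held in each of the 3 granule-like clusters, with ratios of 1.21, 1.39 and 1.49. Across groups Khdrbs3 did not have 1 direction. Of 11 groups with enough UMIs, granule-like nuclei included, its interval lay above 1 in 4. It lay below 1 in 2, among them the CA1-marker cluster with 1083 and 1015 CPM. Over all genes and the 12 groups, the shares of ratios with such intervals were 16.5% above 1 and 7.04% below. Nxph3, which encodes a neurexophilin that binds alpha-neurexins, had 2.38 and 3.08 CPM in granule-like nuclei, a ratio of 1.29 (0.912 to 1.83). Nxph2, of the same family, had 20.4 and 25.9 CPM in inhibitory neuron-like nuclei, a ratio of 1.27 (1.04 to 1.55). Lrrtm3, a postsynaptic ligand of neurexins, had 12.3 and 9.57 CPM in CA3-like nuclei, a ratio of 0.779 (0.572 to 1.06).

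The genes that follow were chosen from the list after their values were seen. Lrrtm4, a neurexin ligand of dentate granule cells, spans 791 kb. It had 5549 CPM in AAV-STOP and 4939 CPM in AAV-TAU granule-like nuclei, a ratio of 0.890 (0.883 to 0.897), and its interval lay below 1 in 9 of 11 groups. Mdga2, whose product covers neuroligins and keeps neurexins off them, spans 756 kb and lay below 1 in 9 of 10 groups. Gphn, the gephyrin gene of the inhibitory postsynaptic scaffold, spans 458 kb and went the other way. Its interval lay above 1 in 10 of 12 groups, with 1189 and 1259 CPM in granule-like nuclei, a ratio of 1.06 (1.04 to 1.08). In granule-like nuclei 27.8% of all genes had an interval above 1, and the median log2 ratio of all genes was 0.06. Over all genes and the 12 groups, 16.5% of ratios had an interval above 1 and 7.04% below. Genes of like level were not set beside the counts for Lrrtm4, Mdga2 and Gphn. Dlg4, which encodes the scaffold protein PSD-95 that binds neuroligins at glutamatergic synapses, had 83.8 and 87.0 CPM in granule-like nuclei, a ratio of 1.04 (0.978 to 1.10).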

How the data were processed

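Single-nucleus libraries from pooled hippocampi of 3 mice per vector were used, 1 AAV-STOP and 1 AAV-TAU. The authors deposited counts of UMIs per gene and barcode, made with Cell Ranger 8.0.1 per the file headers, while the submitters' processing notes name Cell Ranger 4.0, Seurat 4.4.0 and the build mm10. Whether intronic reads were counted is not given in the sources used here. No table of cell types was used, so groups were rebuilt with scanpy 1.11.5 and leidenalg 0.10.2 in Python 3.11.15. Nuclei had at least 500 UMIs, 300 genes and at most 5% mitochondrial UMIs. Scrublet with an expected rate of 0.15 marked 2606 AAV-STOP (12.9%) and 2355 AAV-TAU (12.0%) barcodes as doublets, which were left out. Clustering used 3000 variable genes without the members and the 42 partner genes, 30 components, 15 neighbours and resolution 1. A cluster took a marker set's name at a mean log2 level of at least 1.6 over the median cluster, a lead of 0.3 and 3 markers raised. Inhibitory nuclei were clustered again and named by subtype, leaving out those of a main cluster with Zic4 among its leading genes. These limits came from an earlier analysis that set them after seeing the data.

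UMIs were summed per group and library and given as CPM. Log2 ratios add 5 CPM to both levels. Intervals are exact Poisson for counts, conditional binomial for ratios and Clopper-Pearson for shares, at 95%, and cover counting error only. No test was made with 1 library per vector. Ratios over all genes used those with at least 100 UMIs, and the interval code was tested on simulated data. All 5 members, and partner genes at least 25% higher or 20% lower in granule, CA1, CA3 and inhibitory groups, are named by rule, except 1 that is not reported here. The members and lists were chosen with earlier results of these data known.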

Additional observations from a re-analysis of the deposited data

Results flagged for a closer look

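Nrxn3 was flagged because its direction differed between groups: the counting interval of its ratio lay above 1 in 1 group and below 1 in 7 others. On the log2 scale the AAV-TAU to AAV-STOP difference was 1.02 in immature neuron-like nuclei. It was -0.21 in dentate granule-like, -0.13 in CA3-like, -0.25 in subicular or cortical-like, -0.026 in inhibitory neuron-like, -0.085 in CA1-marker, -0.37 in astrocyte-like and -1.08 in microglia-like nuclei. With 1 library per vector the difference between groups was not tested. Microglia-like nuclei serve as background in the report, and astrocyte-like nuclei of AAV-STOP did not exceed them in their thinned share with a Nrxn3 UMI. In immature neuron-like nuclei the value was -0.0090 without the 18 and 26 nuclei that held inhibitory markers.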

How the results depend on the processing

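No paired analysis was possible because each vector has 1 library, and for the same reason no library could be left out. Nlgn1 was lower in AAV-TAU in 12 of 12 groups under each of 10 other processing settings and with finer clusters weighted alike. These groups include the microglia-like nuclei that serve as background. The number of the 60 ratios with an interval above 1, 2 as reported, was 4 at clustering resolution 0.5 and 1 with median of ratios scaling, with nuclei thinned to 2000 UMIs or with pathway genes kept among the clustering genes. The number below 1 ranged from 16 to 22. The share of genes at least 25% higher or 20% lower, 20.5% in the median group, was 51.1% with no minimum beyond 1 UMI. Nrxn3 in inhibitory neuron-like nuclei turned from -0.026 to 0.017 (log2) among nuclei with at most 0.2% mitochondrial UMIs, and the cause was not tested. In immature neuron-like nuclei it turned from 1.02 to -0.0090 without nuclei holding inhibitory markers, an alternative chosen after seeing the data, as were the alike weights. Under the 10 settings it stayed between 0.73 and 1.95. Nrxn3 ratios whose interval included 1 turned too: in Cajal-Retzius-like nuclei from 0.17 to -1.14 at that mitochondrial limit, and with marked doublets kept in fibroblast-like nuclei from 0.24 to -0.31 and in oligodendrocyte-like nuclei from 0.08 to -0.19. Depth limits Nlgn2 and Nlgn3 most: 3 of the 12 groups had under 100 UMIs of each.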
